A study of Mus musculus with 8 samples.

Results

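Neuropeptides are short signalling peptides that nerve and endocrine cells cut from larger precursor proteins. The 10 genes described here were listed by name as neuropeptide genes of the islet: Pdyn, Penk, Gal, Tac1, Grp, Adcyap1, Nmb, Nmu, Calca and Pthlh. They are 10 of the 20715 genes in the deposited tables. Of the 10, 9 had values (Nmu is listed without one), and 5 were high enough for the test across all genes: Pdyn, Penk, Gal, Tac1 and Pthlh. In ob/ob islets Pdyn was 4.30-fold higher than in ob/+ islets. Penk, Tac1 and Pthlh fell in ob/ob islets, Penk having entered the test through its ob/+ values alone. The groups overlapped for Tac1 and Pthlh, which lost their calls in 6 and 8 of 29 alternative settings. The groups did not overlap for Gal, but its ob/+ libraries differed widely and it did not pass the test.

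RNA was sequenced from pancreatic islets of C57BL/6 mice aged 12 weeks. One group was homozygous for the ob mutation (ob/ob, 4 libraries) and the other carried a single copy of it (ob/+, 4 libraries), so that every mouse bore at least one mutant allele. The mutation lies in Lep, the gene of the fat hormone leptin, and homozygous mice are known to overeat, become obese and resist insulin. Islets were freed with collagenase, separated on a Histopaque density gradient and picked by hand, so nerve endings and small ganglia attached to an islet, and some exocrine tissue, can be carried along. Whether the libraries of a group come from different mice is not stated in the labels; p-values therefore cover only the spread from library to library, part of which may be technical. In bulk RNA, fewer cells of a type and less RNA per cell cannot be told apart.

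Values are FPKM, fragments scaled by transcript length and by the library's total, a unit inferred here. Summed FPKM was 920734 to 1004230 in ob/ob libraries and 820968 to 880570 in ob/+ libraries, and absolute depth is known only roughly. A rough estimate from the steps between low values puts the relative depth of the 8 libraries between 0.967 and 1.04. The 2 insulin genes made up 57.1% to 65.6% of summed FPKM in ob/ob libraries and 42.0% to 54.3% in ob/+ libraries. A list of 33 acinar (enzyme-secreting exocrine) genes made up 3.19% to 11.1% in ob/ob libraries and 7.32% to 24.8% in ob/+ libraries, the highest share being in ob/+ library 4. The defining hormones of beta, alpha and delta cells (Ins2, Gcg and Sst) were all abundant, as the islet label says. Lep itself is listed without a value, so it gives no check of the genotype labels.

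In the islet, neuropeptides come from nerve fibres as well as from endocrine cells. Parasympathetic nerves are known to use peptides such as PACAP and gastrin-releasing peptide, sympathetic nerves galanin and neuropeptide Y, and sensory nerves substance P and CGRP. Some of these peptides raise insulin release and others, galanin among them, restrain it. Each is cut from its precursor at pairs of basic residues by prohormone convertases, trimmed by carboxypeptidase E and often amidated by Pam.

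Pdyn and Penk are sister genes of the opioid family, and their precursors share a short opioid core that is repeated along the protein. Because these sister genes changed in opposite directions, the coding sequence around each core is shown, read from the GENCODE M21 transcripts of GRCm38. Capitals mark the 15 bases of the core and lower case the 6 bases on either side. The prodynorphin coding sequence (747 bases) held 3 cores and the proenkephalin coding sequence (807 bases) held 7. They run 5′ to 3′ in their order along the message.
Pdyn core 1: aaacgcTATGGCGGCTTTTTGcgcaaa
Pdyn core 2: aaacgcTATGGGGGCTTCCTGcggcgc
Pdyn core 3: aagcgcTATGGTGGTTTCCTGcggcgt
Penk core 1: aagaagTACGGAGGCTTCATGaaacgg
Penk core 2: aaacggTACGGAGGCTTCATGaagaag
Penk core 3: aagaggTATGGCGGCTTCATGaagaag
Penk core 4: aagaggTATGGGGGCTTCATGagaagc
Penk core 5: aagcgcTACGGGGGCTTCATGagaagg
Penk core 6: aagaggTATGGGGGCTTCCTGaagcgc
Penk core 7: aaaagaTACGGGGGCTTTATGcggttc
All 3 Pdyn cores end in a leucine codon, the form of leucine-enkephalin. Of the 7 Penk cores, 6 end in a methionine codon and 1, core 6, in a leucine codon. A pair of basic codons stands on both sides of all 3 Pdyn cores and of 5 Penk cores, and the other 2 Penk cores (4 and 7) have such a pair only before them. Counted from the first base of the coding sequence, the Pdyn cores begin at bases 496, 604 and 661 of its 747.

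Pdyn encodes prodynorphin, the precursor of the dynorphins and neoendorphins, which act mainly on the kappa opioid receptor. It lies on chromosome 2, bases 129686565 to 129699844, on the minus strand of GRCm38. Pdyn stood at 158, 160.0, 182 and 232 FPKM in ob/ob libraries 1 to 4, against 31.4, 63.7, 40.1 and 34.99 FPKM in ob/+ libraries 1 to 4. The lowest ob/ob library was above the highest ob/+ library, and the 2 groups did not overlap. Groups did not overlap, in either direction, for 20.5% of the 11747 tested genes. Means were 183 ± 34.5 FPKM in ob/ob and 42.5 ± 14.5 FPKM in ob/+ islets (SD, n = 4 each). On the log2(FPKM + 1) scale the difference was 2.12 ± 0.24 (SE; 95% interval 1.55 to 2.68), with an adjusted p of 0.000774 in limma across all tested genes. By FPKM, Pdyn ranked between 164 and 239 among all genes in ob/ob libraries, and between 686 and 1603 in ob/+ libraries. It was the highest of the 9 genes with values in every library.

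Penk encodes proenkephalin, the precursor of the enkephalins, which act mainly on the delta and mu opioid receptors. The gene is on chromosome 4, bases 4133531 to 4138819, minus strand, and overlaps the noncoding gene A830012C17Rik on the other strand. Whether counting used the strand is not given in the sources used here, so reads of the overlap cannot be assigned with certainty. Penk was at 0.16, 0.16, 0.56 and 0.64 FPKM in ob/ob libraries 1 to 4, against 2.98, 2.81, 2.30 and 2.84 FPKM in ob/+ libraries 1 to 4. The groups did not overlap, and ob/ob libraries 3 and 4 were above 1 and 2. Penk was 7.19-fold lower by its means, 0.38 ± 0.256 FPKM in ob/ob and 2.73 ± 0.298 FPKM in ob/+ islets (SD, n = 4 each). The log2 difference was -1.45 ± 0.14 (SE; 95% interval -1.73 to -1.17), with an adjusted p of 1.87e-08 in limma. Penk reached 1 FPKM in 0 ob/ob and 4 ob/+ libraries, so it entered the test through its ob/+ values alone.

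The 2 opioid precursor genes moved in opposite directions. As a ratio of FPKM within a library, Pdyn exceeded Penk by 989.9, 999.8, 324 and 363 times in ob/ob libraries 1 to 4, against 10.5, 22.7, 17.4 and 12.3 times in ob/+ libraries 1 to 4. Because both values come from the same library, this ratio does not depend on how libraries are scaled against each other. In ob/ob libraries 1 and 2 it rests on only about 4 Penk fragments each, by the rough step estimate, so those ratios are imprecise.

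**Figure D1:**
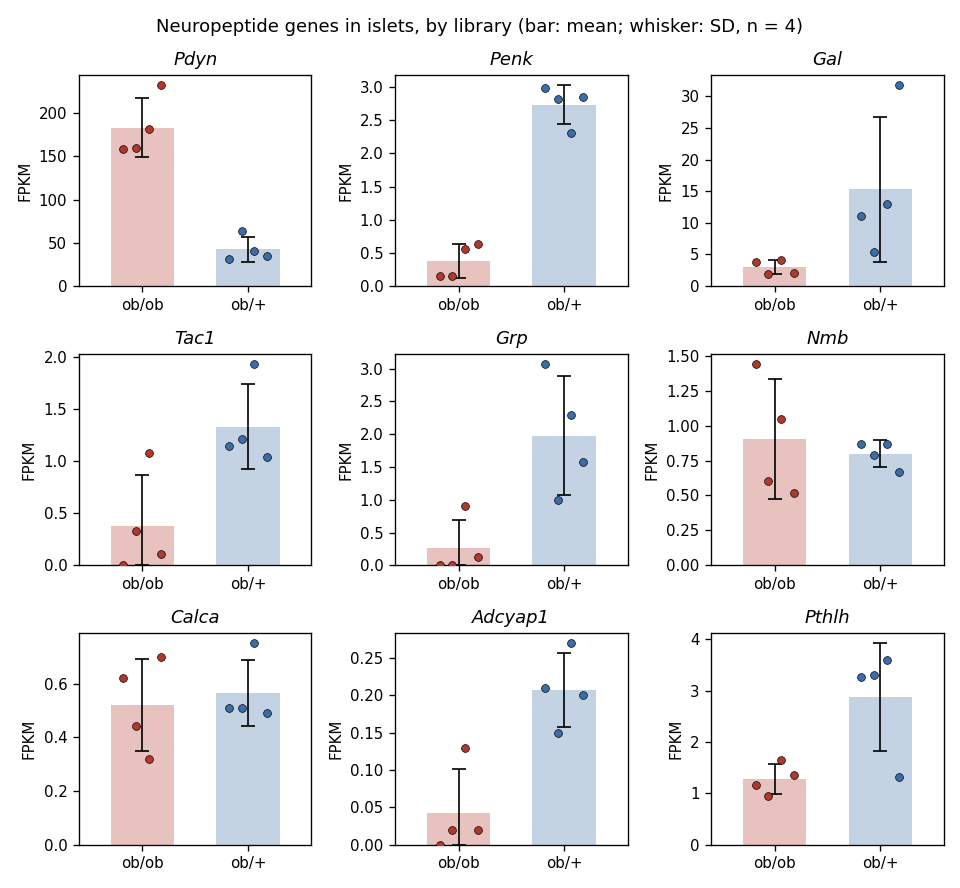
FPKM of the 9 neuropeptide genes with values, 1 panel a gene, each with its own linear axis from 0. Points are libraries, bars the mean and whiskers the SD over 4 libraries (cut at 0). Pdyn is higher in all 4 ob/ob libraries, and Penk, Gal, Grp and Adcyap1 are lower in all 4 ob/ob libraries than in any ob/+ library. Groups did not overlap for 20.5% of all tested genes and for 13% of the genes too low for that test.

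Gal encodes galanin, a peptide of sympathetic islet nerves that lowers insulin release through the receptors Galr1 to Galr3. Its position is chromosome 19, bases 3409915 to 3414544, on the minus strand. Gal was at 3.75, 1.92, 4.11 and 2.14 FPKM in ob/ob libraries 1 to 4, against 11.03, 5.44, 12.9 and 31.8 FPKM in ob/+ libraries 1 to 4. The groups did not overlap, yet the ob/+ libraries spanned 5.44 to 31.8 FPKM, with library 4 above the other 3. Means were 2.98 ± 1.11 FPKM in ob/ob and 15.3 ± 11.5 FPKM in ob/+ islets (SD, n = 4 each), a ratio of 5.14. The log2 difference was -1.83 ± 0.52 (SE; 95% interval -3.08 to -0.57), and its adjusted p of 0.0581 in limma missed the threshold of 0.05. Without ob/+ library 4 the difference was -1.41 with an adjusted p of 0.0296. Without ob/+ library 2 it was -2.19 with an adjusted p of 0.0285.

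The acinar share moved with Gal in ob/+ islets. In ob/+ libraries 1 to 4 it was 10.3%, 7.32%, 13.4% and 24.8%, the same order of libraries as for Gal. In ob/ob libraries 1 to 4 the acinar share was 11.1%, 3.19%, 6.20% and 6.29%, and the order differed from that of Gal: library 2 was lowest for both, but library 1 had the highest share and library 3 the highest Gal. With the log2 acinar level as a term in the limma fit, the Gal difference was -1.09 ± 0.35 (SE), with an adjusted p of 0.0659.

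Tac1 encodes the precursor of substance P and neurokinin A, tachykinins of sensory nerves. It lies on chromosome 6, bases 7554879 to 7565834, on the plus strand. Tac1 was at 0, 0.33, 1.08 and 0.11 FPKM in ob/ob libraries 1 to 4, against 1.14, 1.21, 1.93 and 1.04 FPKM in ob/+ libraries 1 to 4. Library 3 was the highest of each group, and ob/ob library 3 lay above ob/+ library 4, so the groups overlapped. Means were 0.38 ± 0.486 FPKM in ob/ob and 1.33 ± 0.406 FPKM in ob/+ islets (SD, n = 4 each). The log2 difference was -0.80 ± 0.21 (SE; 95% interval -1.26 to -0.34), with an adjusted p of 0.0198 in limma. Only 1 ob/ob library, against 4 ob/+ libraries, reached 1 FPKM. The call was lost without ob/ob library 2 (adjusted p = 0.0606), without ob/ob library 4 (0.0533) and with a pseudocount of 0.1 (0.101). It was also lost without ob/+ library 2 when the genes tested were held to those of the 8-library filter (0.0581).

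Pthlh encodes parathyroid hormone-related protein, a local peptide signal that beta cells are known to make and that acts through Pth1r. It lies on chromosome 6, bases 147252101 to 147264183, on the minus strand. Pthlh was at 1.17, 0.94, 1.64 and 1.36 FPKM in ob/ob libraries 1 to 4, against 3.27, 3.31, 3.60 and 1.31 FPKM in ob/+ libraries 1 to 4. The ob/+ libraries 1 to 3 stood above every ob/ob library, and ob/+ library 4 fell within the ob/ob range. Means were 1.28 ± 0.296 FPKM in ob/ob and 2.87 ± 1.05 FPKM in ob/+ islets (SD, n = 4 each), 2.25-fold lower in ob/ob. The log2 difference was -0.72 ± 0.20 (SE; 95% interval -1.15 to -0.30), with an adjusted p of 0.0202 in limma. The call was lost when ob/ob library 1, ob/ob library 2, ob/+ library 1 or ob/+ library 2 was left out, with adjusted p of 0.0616, 0.0525, 0.0608 and 0.0559 in that order.

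In the limma fit 4 of these 5 genes were called, 1 higher and 3 lower in ob/ob islets. Over all 11747 tested genes 18.8% were called, 8.21% higher and 10.6% lower, so calls are common in this comparison. Groups that did not overlap were common too, at 20.5% of the tested genes. Penk entered the test through its ob/+ values alone and Tac1 reached 1 FPKM in only 1 ob/ob library, so no weight is placed on the number of lower genes among the 5. With ob/ob library 2 left out, or with ob/+ library 1 left out (which takes Penk out of the filter), 2 of the genes were called, and without both ob/+ library 4 and ob/ob library 1, 3 were.

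**Figure D2:**
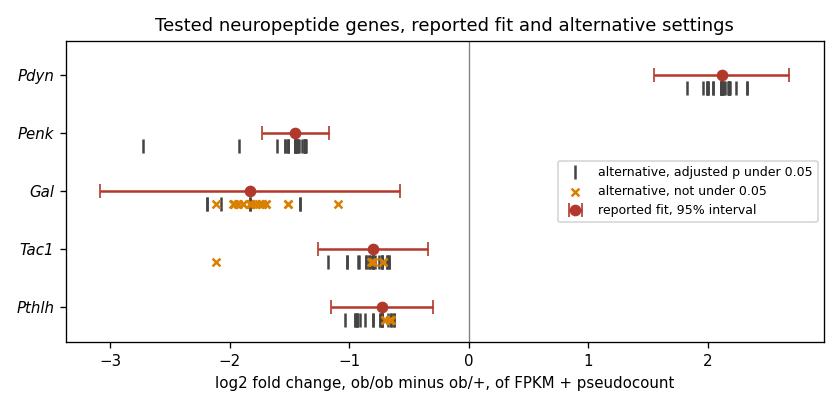
Log2 difference, ob/ob minus ob/+, of FPKM plus pseudocount for the 5 tested genes (x axis; 1 gene a row). Circles give the reported fit with its 95% interval, and the marks under each give the alternative settings, split by whether the adjusted p was under 0.05. Pdyn stays to the right of 0 and the other 4 genes to the left in all settings drawn, while Gal, Tac1 and Pthlh have settings on both sides of the threshold.

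The other 4 genes with values lay below 1 FPKM in too many libraries for that fit. Each was compared by an exact two-sided permutation test of the mean log2(FPKM + 1), whose smallest possible p with 4 libraries against 4 is 0.0286. Grp encodes gastrin-releasing peptide, which parasympathetic pancreatic nerves release. It overlaps an antisense gene, so part of its reads are uncertain. Grp was at 0, 0, 0.91 and 0.13 FPKM in ob/ob libraries 1 to 4, against 3.07, 0.99, 2.29 and 1.57 FPKM in ob/+ libraries 1 to 4. The groups did not overlap, although ob/ob library 3 came close to ob/+ library 2. Means were 0.26 ± 0.438 FPKM in ob/ob and 1.98 ± 0.900 FPKM in ob/+ islets (SD, n = 4 each; exact permutation p = 0.0286, the smallest possible). With median centring of the libraries, which also shifts values of 0, the exact permutation p was 0.0571. It stayed at 0.0286 with upper-quartile scaling and with scaling without the 10 most abundant genes or without the acinar list.

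Adcyap1 encodes PACAP, a peptide of pancreatic nerves that strengthens glucose-stimulated insulin release. Its position is chromosome 17, bases 93199017 to 93206537, on the plus strand. Adcyap1 was at 0, 0.02, 0.13 and 0.02 FPKM in ob/ob libraries 1 to 4, against 0.21, 0.15, 0.27 and 0.20 FPKM in ob/+ libraries 1 to 4. Library 3 was again the highest of each group, and the groups did not overlap. Since 1 fragment is worth about 0.0172 FPKM of this gene, by the rough step estimate, an ob/ob value of 0.02 is about a single fragment. The exact permutation p was 0.0286, again the smallest possible, and 0.114 with median centring, which moved the log2 difference from -0.213 to -0.142. It stayed at 0.0286 with upper-quartile scaling and with scaling without the 10 most abundant genes or without the acinar list.

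Nmb encodes neuromedin B, a relative of gastrin-releasing peptide. It lies on chromosome 7, bases 80902227 to 80905076, on the minus strand, and overlaps Sec11a on the same strand, so part of its reads are uncertain. Nmb was at 1.44, 0.60, 1.05 and 0.52 FPKM in ob/ob libraries 1 to 4, against 0.87, 0.79, 0.87 and 0.67 FPKM in ob/+ libraries 1 to 4. The ob/+ range lay inside the ob/ob range (exact permutation p = 0.8). Calca, on chromosome 7, bases 114631478 to 114636357, minus strand, makes both calcitonin and the sensory peptide CGRP by splicing, which values per gene cannot separate. Calca was at 0.62, 0.44, 0.32 and 0.70 FPKM in ob/ob libraries 1 to 4, against 0.51, 0.51, 0.75 and 0.49 FPKM in ob/+ libraries 1 to 4, again with overlap (exact permutation p = 0.657). Nmu, the gene of neuromedin U on chromosome 5 (bases 76333495 to 76363788), has no value in any library and was not compared.

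Among the 5654 genes with values below the filter, 13% had an exact permutation p under 0.05, and 8.67% had one with lower values in ob/ob islets; Grp and Adcyap1, 2 of 4, were of this kind. When limma was run on all 17401 genes with values, without a filter, Grp had a log2 difference of -1.25 ± 0.27 (SE) and an adjusted p of 0.0133. Adcyap1 had -0.21 ± 0.05 (SE) and an adjusted p of 0.00958 in the same fit. In that fit 7 of the 9 genes with values were called, 1 higher and 6 lower, against 14.6% of all genes, 6.03% higher and 8.54% lower. Gal was among the 6, with an adjusted p of 0.0408. Nmb and Calca had adjusted p of 0.841 and 0.797.

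FPKM is a value per length, so levels of different genes can be set in order. By the median of ob/ob libraries the order was Pdyn (171 FPKM), Gal (2.95), Pthlh (1.26), Nmb (0.825), Calca (0.53), Penk (0.36), Tac1 (0.22), Grp (0.065) and Adcyap1 (0.02). Pdyn and Gal, and Gal and Pthlh, were separated in their ranges over libraries, and all later neighbours overlapped. By the median of ob/+ libraries the order was Pdyn (37.5 FPKM), Gal (12.0), Pthlh (3.29), Penk (2.83), Grp (1.93), Tac1 (1.18), Nmb (0.83), Calca (0.51) and Adcyap1 (0.205). Here the ranges of Pdyn and Gal overlapped, through the high Gal value of library 4, whereas Gal and Pthlh, Tac1 and Nmb, and Calca and Adcyap1 were separated.

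Markers of islet nerves and their sheaths were counted beside these genes, in a list of 27 markers of autonomic ganglion neurons, their fibres and Schwann cells. Without a filter, 21 of the 27 were lower and 1 (Ddc) higher in ob/ob islets, with a median log2 difference of -0.76, against -0.03 over all genes. With the filter, 17 were tested, 13 fell and 1 rose, and 5 of the 17 entered through ob/+ values alone. Prph, an intermediate filament of peripheral neurons, was at 0.22, 0.96, 1.11 and 0.46 FPKM in ob/ob libraries 1 to 4, against 7.88, 6.00, 8.45 and 6.50 FPKM in ob/+ libraries 1 to 4. Its log2 difference was -2.31 ± 0.16 (SE, adjusted p = 1.91e-09 in limma). Stmn2, a growth cone protein, had -2.05 ± 0.14 (adjusted p = 9.10e-11), Chrna3, a ganglionic acetylcholine receptor subunit, -1.74 ± 0.15 (4.62e-09), and Hand2, a transcription factor of sympathetic neurons, -1.63 ± 0.14 (3.52e-09), in the same fit. Chrna3 was 1 of the 5 that entered through ob/+ values alone, with at most 0.53 FPKM in ob/ob libraries. Without a filter its adjusted p in limma was 3.08e-05. The highest ob/ob value of Hand2 was 1.01 FPKM.

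Summed over all 27 markers the list stood at 211 to 236 FPKM in ob/ob libraries and 190 to 236 FPKM in ob/+ libraries. This sum is mostly Ddc, an aromatic amino acid decarboxylase that beta cells also express, with means of 176 FPKM in ob/ob and 117 FPKM in ob/+ islets. Without Ddc, a choice made after its values were seen, the 26 other markers summed to 44.7, 50.8, 54.6 and 45.0 FPKM in ob/ob libraries 1 to 4, against 111, 91.0, 107 and 82.7 FPKM in ob/+ libraries 1 to 4. The groups did not overlap, and library 3 was the highest of the ob/ob group, as it was for Tac1, Grp and Adcyap1. The largest parts of this sum were Th and Elavl4. Th averaged 17.0 FPKM in ob/ob and 24.7 FPKM in ob/+ islets (adjusted p = 0.00761 in limma). Elavl4 averaged 10.8 FPKM in ob/ob and 12.8 FPKM in ob/+ islets and was not called (adjusted p = 0.212 in limma). At 0 were Dbh and Ecel1 in ob/ob libraries 1, 2 and 4, with Chat as well in library 2, and Ecel1 in ob/+ libraries 1, 2 and 3. These markers moved with the lower neuropeptide genes, and their part in those differences was not tested. Pdyn did not share their direction.

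Markers of other islet cells moved too. Among alpha cell markers 8 were tested, of which 6 fell and 2 rose (Gc by 2.25 and Ttr by 0.32 on the log2 scale, both with adjusted p under 0.05 in limma), and the list summed to 9012 to 12467 FPKM in ob/ob libraries and 25395 to 31886 FPKM in ob/+ libraries. Most of that sum is Gcg, the glucagon gene, with means of 8424 FPKM in ob/ob and 26864 FPKM in ob/+ islets. Delta and PP cell markers numbered 6 in the test, with 5 lower and 0 higher in ob/ob, and summed to 3763 to 5925 FPKM in ob/ob libraries and 12593 to 17239 FPKM in ob/+ libraries. Sst, the delta cell hormone, was at 1010, 1445, 1168 and 1330 FPKM in ob/ob libraries 1 to 4, against 6082, 5440, 5498 and 5541 FPKM in ob/+ libraries 1 to 4. Of 13 vascular and fibroblast markers 3 fell, all of them collagens: Col1a1 averaged 1.54 FPKM in ob/ob and 5.80 FPKM in ob/+ islets, Col1a2 2.78 FPKM in ob/ob and 6.54 FPKM in ob/+ islets, and Col3a1 4.25 FPKM in ob/ob and 9.46 FPKM in ob/+ islets. Rgs5, a pericyte marker, rose, and the other 9 were not called; the list summed to 204 to 262 FPKM in ob/ob libraries and 217 to 238 FPKM in ob/+ libraries. Among 7 tested duct and mesothelial markers 3 rose and Msln, a mesothelial gene, fell, with means of 3.64 FPKM in ob/ob and 25.0 FPKM in ob/+ islets; the list summed to 285 to 320 FPKM in ob/ob libraries and 245 to 279 FPKM in ob/+ libraries. In the limma fit 0 of 10 tested immune markers were called (2 at an unadjusted p under 0.05), and the list's sums were 71.0 to 137 FPKM in ob/ob libraries and 79.8 to 119 FPKM in ob/+ libraries. Scaled without the acinar list, 9 vascular, 2 duct and 3 immune markers were lower, as were 6986 of all 11775 tested genes. No gene of these lists was at 0 in all libraries, and the part of these cells in the lower neuropeptide genes was not tested.

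Other neuropeptide genes were counted in a list of 44, of which 29 had values and 8 were tested; 2 rose and 3 fell, and the median log2 difference of the 8 was 0.05, against -0.07 over all tested genes. Nucb2, the precursor of nesfatin-1, was at 344, 369, 373 and 448 FPKM in ob/ob libraries 1 to 4, against 109, 144, 103 and 122 FPKM in ob/+ libraries 1 to 4. It had the same direction as Pdyn without overlap, with a log2 difference of 1.68 ± 0.10 (SE, adjusted p = 5.73e-11 in limma). Cartpt, the precursor of the CART peptides, was at 5.71, 5.56, 3.94 and 7.13 FPKM in ob/ob libraries 1 to 4, against 1.82, 0.71, 1.68 and 0.52 FPKM in ob/+ libraries 1 to 4 (log2 difference 1.62 ± 0.22, adjusted p = 0.000325 in limma). Edn3, the gene of endothelin 3, averaged 1.26 ± 0.394 FPKM in ob/ob and 5.74 ± 0.647 FPKM in ob/+ islets (SD, n = 4 each; log2 difference -1.59 ± 0.13, adjusted p = 3.52e-09 in limma).

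The other 2 that fell, Npy and Vip, are peptides of autonomic nerves. Npy was at 0.71, 2.03, 5.22 and 1.35 FPKM in ob/ob libraries 1 to 4, against 38.8, 25.0, 40.3 and 33.5 FPKM in ob/+ libraries 1 to 4 (log2 difference -3.56 ± 0.42, adjusted p = 0.00157 in limma). Vip, named after its values were seen, was at 0.29, 1.80, 5.01 and 2.52 FPKM in ob/ob libraries 1 to 4, against 24.2, 21.5, 35.7 and 20.4 FPKM in ob/+ libraries 1 to 4 (log2 difference -3.13 ± 0.49, adjusted p = 0.00582 in limma). Both were highest in library 3 of each group, like Tac1 and Adcyap1. The groups were well apart for both genes.

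**Figure D3:**
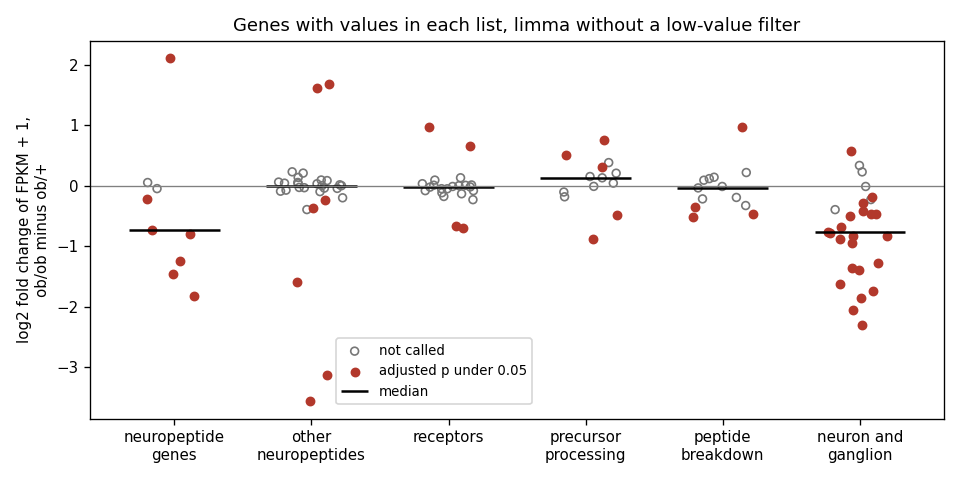
Log2 difference of FPKM + 1, ob/ob minus ob/+, of every gene with values in 6 lists, from the limma fit without a low-value filter; filled points have an adjusted p under 0.05 and lines are list medians. The neuron and ganglion list has 21 filled points under 0 and 1 above it. Most receptor genes lie near 0, but only 9 of the 22 with values passed the filter. A gene with FPKM near 0 in both groups must lie near 0 on this scale.

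The receptors of these peptides were measured in the same islets, in a list of 23 genes of which 22 had values. Tested were 9, and 2 rose, 1 fell and 6 were not called, with a median log2 difference of 0.00. Scaled without the acinar list, 2 were higher and 4 lower, but with that scaling 6986 of all 11775 tested genes were lower. Of the galanin receptors, Galr2 rose: it was at 3.25, 2.42, 2.75 and 2.18 FPKM in ob/ob libraries 1 to 4, against 1.27, 1.58, 1.63 and 0.85 FPKM in ob/+ libraries 1 to 4 (log2 difference 0.65 ± 0.14, adjusted p = 0.00113 in limma). Galr1 averaged 11.5 ± 1.30 FPKM in ob/ob and 10.5 ± 2.28 FPKM in ob/+ islets (SD, n = 4 each; adjusted p = 0.557 in limma). Galr3 averaged 8.08 ± 1.40 FPKM in ob/ob and 9.27 ± 1.73 FPKM in ob/+ islets (SD, n = 4 each; adjusted p = 0.405 in limma).

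PACAP shares 2 receptors with VIP, and these moved apart. Vipr2 was at 2.83, 2.36, 3.05 and 2.78 FPKM in ob/ob libraries 1 to 4, against 1.01, 0.81, 0.92 and 0.87 FPKM in ob/+ libraries 1 to 4. Vipr1 was at 7.16, 8.33, 8.28 and 7.61 FPKM in ob/ob libraries 1 to 4, against 14.6, 12.7, 15.2 and 9.90 FPKM in ob/+ libraries 1 to 4. Neither gene's groups overlapped, and the log2 differences were 0.98 ± 0.12 for Vipr2 (adjusted p = 1.17e-06 in limma) and -0.66 ± 0.13 for Vipr1 (adjusted p = 0.000526). The PACAP-selective receptor gene Adcyap1r1, below the filter, was at 0.04, 0.13, 0.45 and 0.11 FPKM in ob/ob libraries 1 to 4, against 1.01, 0.86, 1.04 and 0.71 FPKM in ob/+ libraries 1 to 4. In the limma fit without a filter its difference was -0.70 ± 0.10 (SE, adjusted p = 0.000972), and library 3 was again the highest of each group.

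Receptors for the opioid and tachykinin peptides were near the lower limit of these data. Oprd1, the delta receptor, averaged 0.05 FPKM in ob/ob and 0.085 FPKM in ob/+ islets, and Oprm1, the mu receptor, 0.045 FPKM in ob/ob and 0.0825 FPKM in ob/+ islets. Oprk1, the kappa receptor on which dynorphins act, is listed without a value. Tacr1, the substance P receptor, averaged 0.0475 FPKM in ob/ob and 0.04 FPKM in ob/+ islets. Pth1r, the receptor of the Pthlh product, averaged 0.305 ± 0.0823 FPKM in ob/ob and 0.378 ± 0.0556 FPKM in ob/+ islets (SD, n = 4 each). The CGRP receptor pair was higher: Calcrl averaged 3.08 FPKM in each genotype (adjusted p = 0.993 in limma), and Ramp1 4.10 ± 0.571 FPKM in ob/ob and 4.57 ± 0.448 FPKM in ob/+ islets (SD, n = 4 each; adjusted p = 0.505 in limma).

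Enzymes that cut and finish peptide precursors were counted in a list of 13, of which 12 were tested; 3 rose and 2 fell, with a median log2 difference of 0.14. That balance turned with the scaling. When libraries were scaled without the acinar list, 1 was higher and 5 lower (median -0.15). Without the 10 most abundant genes, 5 were higher and 2 lower (median 0.26). The balance over all tested genes turned too. Of 11775 genes, 477 were higher and 6986 lower without the acinar list (median -0.33). Without the 10 most abundant genes, 1276 were higher and 621 lower (median 0.03). Scg5, the chaperone of the convertase Pcsk2, was at 844, 841, 921 and 1058 FPKM in ob/ob libraries 1 to 4, against 570, 573, 544 and 477 FPKM in ob/+ libraries 1 to 4 (log2 difference 0.76 ± 0.09, adjusted p = 6.56e-07 in limma). Pam, the amidating enzyme, had a difference of 0.51 ± 0.12 (adjusted p = 0.00488), and Cpe, carboxypeptidase E, 0.31 ± 0.09 (adjusted p = 0.0116), in the same limma fit; scaled without the acinar list, neither was called (adjusted p = 0.0936 and 0.894 in limma). Pcsk6 fell, with means of 2.29 ± 0.294 FPKM in ob/ob and 5.02 ± 0.566 FPKM in ob/+ islets (SD, n = 4 each; adjusted p = 9.97e-06 in limma), and Qpct, which forms N-terminal pyroglutamate, fell by 0.48 on the log2 scale (adjusted p = 0.00958). The main convertases of dense-core granules were not called: Pcsk1 averaged 161 ± 14.7 FPKM in ob/ob and 125 ± 26.5 FPKM in ob/+ islets, and Pcsk2 919 ± 74.4 FPKM in ob/ob and 796 ± 78.7 FPKM in ob/+ islets (SD, n = 4 each; adjusted p = 0.0572 and 0.0981 in limma).

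Peptidases that can break peptides down were counted in a second list of 13, of which 12 were tested. Of these 1 rose and 3 fell, with a median log2 difference of -0.11. Scaled without the acinar list, 1 was higher and 7 lower, where 6986 of all 11775 tested genes were lower. Scaled without the 10 most abundant genes, 1 was higher and 1 lower. Anpep, aminopeptidase N, was at 117, 108, 105 and 79.2 FPKM in ob/ob libraries 1 to 4, against 59.4, 50.7, 54.4 and 42.7 FPKM in ob/+ libraries 1 to 4 (log2 difference 0.96 ± 0.12, adjusted p = 4.68e-06 in limma). Cpm fell by 0.52, Prep by 0.46 and Dpp7 by 0.36 on the log2 scale, with adjusted p of 0.00450, 0.00961 and 0.0199 in limma; Prep and Dpp7 were not called without the 10 most abundant genes (0.0932 and 0.302). Mme, neprilysin, which cleaves enkephalins and substance P, averaged 0.0275 FPKM in ob/ob and 0.035 FPKM in ob/+ islets, below the filter. Over the receptor, processing, breakdown and other neuropeptide lists, 17 of 41 tested genes were called, 8 higher and 9 lower. This is 41.5%, against 18.8% over all tested genes. The lists were chosen with earlier results of these data known, so the larger share is not independent support. Scaled without the acinar list, 6 were higher and 19 lower, where 477 of all 11775 tested genes were higher and 6986 lower.

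The tested genes whose levels followed Pdyn and Penk most closely were found by Pearson's r of log2(FPKM + 1) over the 8 libraries, as a description. Symbols of the Gm, Rik and LOC kind, which have no name of their own, were passed over. For Pdyn they were Cgref1 (r = 0.994), Prom1 (0.991) and Slc17a9 (0.989). Cgref1 averaged 16.1 FPKM in ob/ob and 5.39 FPKM in ob/+ islets, Prom1 45.7 FPKM in ob/ob and 17.9 FPKM in ob/+ islets, and Slc17a9, a vesicular nucleotide transporter, 25.3 FPKM in ob/ob and 11.2 FPKM in ob/+ islets. For Penk they were Dpysl5 (0.993), Sfrp1 (0.991) and Scn7a (0.991). Dpysl5 averaged 0.155 FPKM in ob/ob and 1.08 FPKM in ob/+ islets, Sfrp1 0.235 FPKM in ob/ob and 1.36 FPKM in ob/+ islets, and Scn7a 0.293 FPKM in ob/ob and 1.29 FPKM in ob/+ islets. These 8 points fall into 2 genotypes that differ in both genes of each pair, so r includes that difference.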

How the data were processed

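RNA-seq values of 8 islet libraries were grouped by the labelled genotype. The authors deposited 1 table per library in FPKM; that unit is an inference from the values, since no label or header gives it. The submitters' processing notes list DESeq2 1.20.0, Trimmomatic 0.36 and the builds GRCm38 and mm10 without a role. Which aligner and quantifier were used is not given in the sources used here. Of 20715 listed genes, 3314 had no value and 12 had date-like names. Low values only roughly followed whole-fragment steps (50.7% to 60.1% within 0.1 of a whole number), so reads were not recovered, absolute depth is known only roughly and no count test was run. FPKM is relative to the library total, so a larger insulin or acinar share lowers other genes.

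A gene entered the test when 4 or more libraries had 1 FPKM or more. Values as log2(FPKM + 1) were fitted in R 4.3.3 by limma 3.58.1, using eBayes with its trend and robust options (statmod 1.5.0); tests were two-sided, with Benjamini-Hochberg adjustment over all tested genes and a threshold of 0.05. Log2 differences are on that scale, which makes changes of low genes look smaller; folds are ratios of mean FPKM. Members below the filter had an exact permutation test over 70 assignments, checked against SciPy 1.17.1. On simulated data the limma test called 43.2% of 95 genes changed by 0.5 and 92.9% of 99 genes changed by 1 (log2), with 6.99% of 143 calls false among 11585 tested genes. The simulated noise was independent for each gene and held no difference in acinar share or scaling. Its false share therefore does not describe the calls in the real libraries. No libraries were duplicates: correlations of log2 values were 0.987 to 0.996 within and 0.976 to 0.982 between groups. Positions come from GENCODE M21, in which 96.7% of symbols had 1 match.

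The members, lists and tests were chosen with earlier results of these data known. Genes named beside the members were the up to 4 called genes with the smallest adjusted p of each list, and receptors of tested members. Also named were the 3 tested genes, Gm, Rik and LOC symbols passed over, most correlated with each of the 2 called members of largest change. Others (Vip, Ddc, Th, Elavl4, Cpe, Pcsk1, Pcsk2, Mme, Calcrl, Ramp1, Adcyap1r1, Sst, Gcg, Gc, Ttr, Col1a1, Col1a2, Col3a1, Rgs5, Msln) were named after their values were seen. Alternatives covered library scaling, filter, pseudocount, robust option, replicate block, acinar covariate and leaving out libraries.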

Additional observations from a re-analysis of the deposited data

Results flagged for a closer look

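In 18 groups of 4 libraries (9 genes with values, 2 genotypes), 4 held a library farther from the other 3 than Dixon's 95% critical value for the gap over the range; chance flags about 1 in 20 groups. Among ob/ob libraries, library 3 stood above the others for Grp, at 0.91 FPKM, and for Adcyap1, at 0.13 FPKM. It also had the highest Tac1, Npy and Vip and the highest sum of neuron markers without Ddc of the ob/ob group. Among ob/+ libraries, library 3 stood above the others for Calca, at 0.75 FPKM, and library 4 stood below the others for Pthlh, at 1.31 FPKM. Library 4 also had the highest acinar share and the highest Gal of the ob/+ group. No cause was tested for any of these.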

How the results depend on the processing

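Pdyn kept its call in 29 of 29 settings and Penk in 24 of 24; 9 of these, which leave out libraries but hold the genes tested to those of the 8-library filter, and all settings for genes below the filter, were chosen after seeing the data. Gal was lower in all 29 and passed the threshold in 7: scaling without the acinar list (adjusted p = 0.0203), no filter (0.0408), no robust option (0.00162), and without ob/+ library 2 or 4 (with either gene set). Tac1 lost its call in 6 of 29 and Pthlh in 8 of 29, with no change of direction. The count of neuropeptide genes called was 4; it was 7 without a filter and 2 to 4 with a library left out, and 2 to 5 with the genes tested held fixed; otherwise leaving out an ob/+ library takes Penk out of the filter. Of the genes below the filter, 2 had an exact permutation p under 0.05. With median centring, which also shifts values of 0, 0 did, as Grp had 0.0571 and Adcyap1 0.114. The count stayed at 2 with upper-quartile scaling and with scaling without the 10 most abundant genes or without the acinar list. With a library left out it was 0 to 2 (at 3 against 4 libraries p was 0.0286 or 0.0571 for both genes).

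The count over all genes depended on the scaling: 2208 called (965 higher, 1243 lower), against 3429 with median centring (1823, 1606), 3480 with upper-quartile scaling (1645, 1835), 1897 without the 10 most abundant genes (1276, 621), 7463 without the acinar list (477, 6986; median log2 difference -0.33), 3313 with the acinar covariate (744, 2569), 4000 without both ob/+ library 4 and ob/ob library 1 (1012, 2988), and 1434 (without ob/+ library 1) to 4832 (without ob/+ library 4). The cause was not tested. Over the context lists 17 genes were called, 15 to 22 with a library left out and 25 (6 higher, 19 lower, against 8 and 9) scaled without the acinar list. With that scaling 6 receptors (against 3) and 8 breakdown genes (against 4) were called, and 2 breakdown genes without the 10 most abundant genes.

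Whether same-numbered libraries pair was not settled. Their deviations from the group means correlated at -0.220, 0.212, 0.172 and 0.124 for libraries 1 to 4. Libraries of unlike number correlated at -0.189 to 0.194. With a replicate block 2674 genes (2208 without it), 4 neuropeptide genes and 17 context genes were called. With 4 libraries a group and depth known only roughly, values under about 0.1 FPKM rest on few fragments.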
